A study of Mus musculus with 24 samples.

Results

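The comparison described here set Cnot6l-/- zygotes against Cnot6l-/- MII eggs, with 2 RNA-seq libraries in each group. The genes followed were those averaging 1 FPKM or more in the zygotes or in the MII eggs (FPKM is nominally a fragment count normalised to transcript length and sequencing depth), which were 7681 of the 23235 genes listed. Of these, 5698 reached 1 FPKM in both groups, 52 in zygotes alone and 1931 in MII eggs alone. The 52 and the 1931 entered through the group in which they were higher. The study profiled oocytes of 3 genotypes, Cnot6l-/-, Btg4-/- and WT, at 4 stages, with 24 libraries in all. The females were C57BL/6 mice at postnatal day 21. Cnot6l-/- and WT zygotes were taken from fertilized females 24 h after hCG, and Cnot6l-/- and WT MII eggs came from oocytes cultured for 16 h. Zygotes and MII eggs therefore differed in fertilization and also in culture, and hCG and a time after it are given for the zygotes alone. These differences cannot be told apart. GV oocytes were collected 48 h after PMSG and MI oocytes after 8 h of culture.

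Cnot6l encodes a catalytic subunit of CCR4-NOT, the complex that shortens poly(A) tails and so starts the decay of mRNA. A growing mouse oocyte stores mRNA for a period without transcription, and most of that store is removed between the resumption of meiosis and the start of embryonic transcription. Btg4 encodes an adaptor that links the deadenylase to its mRNA targets. Fertilization ends the arrest at metaphase II, triggers calcium waves and the block to further sperm, and begins the zygote's first cell cycle. The libraries were made by Smart-Seq2, which primes on poly(A) tails, so in these values fewer mRNA molecules and shorter tails cannot be told apart, nor can fewer molecules per cell and fewer cells. The labels do not say that libraries of a group came from separate animals, so the p-values measure the spread between libraries.

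Cnot6l mRNA (chromosome 5, 96505816 to 96591009, mm9) was listed at 6.15 and 4.92 FPKM in Cnot6l-/- zygotes and at 7.26 and 3.40 FPKM in Cnot6l-/- MII eggs. It was 31.6 and 7.07 FPKM in WT zygotes and 23.6 and 20.8 FPKM in WT MII eggs. Every mutant value was below every WT value at the same stage, and the labels do not say which part of the gene was deleted. Summed FPKM was 87577 and 130389 in Cnot6l-/- zygotes against 199462 and 181023 in Cnot6l-/- MII eggs, a ratio of 0.573 ± 0.164 (SD, n = 2 libraries each; exact two-sided permutation p = 0.333, the smallest that 4 libraries can give). The same ratio was 0.636 in WT and 0.871 in Btg4-/-. Values scaled to sequencing depth alone would give sums of broadly similar size, but over the 24 libraries they ran between 49930 and 545784 FPKM, and no source used here says how libraries were scaled to each other. All 9 oocyte markers examined were at or above 18.4 FPKM in the mutant zygotes and 78.9 FPKM in the mutant MII eggs. Markers of other cells were low. The 20 cumulus cell markers summed to 5.82 and 6.01 FPKM in zygotes and 12.3 and 7.77 FPKM in MII eggs. Ptx3, Foxl2, Areg and Ereg were at 0 in all 4 libraries, and Cyp19a1 was the highest, at up to 11.3 FPKM. The 12 blood markers summed to 0.41 and 2.37 FPKM against 0.62 and 0.54 FPKM, with 6 of them at 0, among them Hbb-b1 and Cd74. The 10 oviduct markers summed to 5.18 and 8.84 FPKM against 11.3 and 10.1 FPKM, with 5 at 0, among them Krt18 and Foxj1. Cdh1 was the highest of the 10, at up to 10.1 FPKM. The 16 sperm markers summed to 3.88 and 9.80 FPKM in zygotes against 25.3 and 26.1 FPKM in MII eggs, with 7 at 0, among them Tnp1 and Acr. Ldhc, a lactate dehydrogenase that mouse oocytes also express, was the highest of them.

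The fall was broad. Relative to Cnot6l-/- MII eggs, 2796 of the 7681 genes were lower in Cnot6l-/- zygotes (36.4%) and 7 were higher (0.0911%), against 28.7% and 0.0735% of all 10884 genes tested, by limma on log2(FPKM + 1) with Benjamini-Hochberg adjusted p under 0.05. A change was negative for 7261 genes (94.5%), called or not. The median change was -0.63 on the log2 scale, and the median gene kept 53.6% of its MII level, with quartiles at 31.6% and 73.1%. Of the genes called lower, 1937 were lower by at least 1 log2 unit, 509 by at least 2 and 94 by at least 3. Scaling each library by its median ratio moved the median of all genes by 0.49 to -0.14, and then 1583 genes were lower (20.6%), all of them within the 2796, and 138 were higher (1.8%). The count of lower genes was 1501 without zygote library 1, 1722 without MII library 1 and 1730 when only the 4 libraries compared were fitted.

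**Figure D1:**
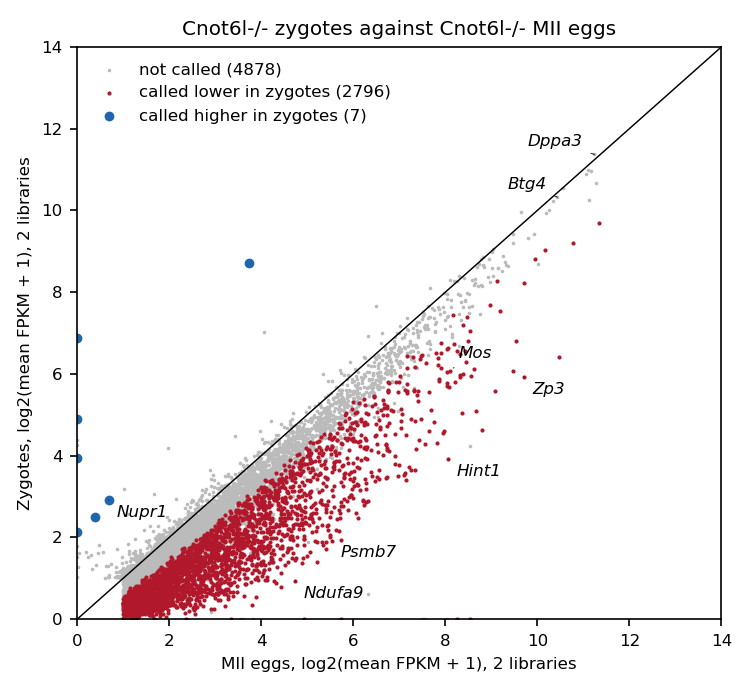
Mean FPKM of each of the 7681 genes on the log2(FPKM + 1) scale, with Cnot6l-/- zygotes on the vertical axis and Cnot6l-/- MII eggs on the horizontal axis; the line marks equal values. The 2796 genes called lower lie below the line at every level, and the 7 called higher are scattered above it at the left.

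The ribosomal protein, oxidative phosphorylation and proteasome lists had lower medians than all genes, and translation factors lay nearer to the median of all genes. Called lower were 80.5%, 75.9%, 64.7% and 49.1% of their genes, in that order, against 36.4% of all 7681. Among the 82 ribosomal protein genes, 66 were lower and 0 higher, with a median change of -2.39 against -0.63 for all 7681 genes. Among the 83 genes listed for nuclear-encoded oxidative phosphorylation, 63 were lower and 0 higher, with a median of -1.88. Of 34 proteasome genes, 22 were lower and 0 higher, with a median of -1.24, and of 57 translation factor genes, 28 were lower and 0 higher, with a median of -0.87. After median-ratio scaling these medians were -1.81, -1.33, -0.58 and -0.33, against -0.14 for all genes, and 54, 52, 15 and 16 of the genes were lower. Some lists were built from name patterns and took in a few genes that are not subunits, such as Eif4ebp1 among the translation factors. Several ribosomal protein genes have near-identical pseudogene copies, which makes their single values less certain.

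Rpl39 (chromosome X, 34622515 to 34625179), a protein of the large ribosomal subunit, was at 11.3 and 26.3 FPKM in Cnot6l-/- zygotes, against 172 and 277 FPKM in Cnot6l-/- MII eggs. The groups were far apart, and the log2 change was -3.58 ± 0.40 (SE; limma adjusted p = 5.21e-06). Rpl7a, also of the large subunit, was at 2.79 and 7.35 FPKM in zygotes against 58.8 and 72.8 FPKM in MII eggs, a change of -3.56. The decline did not extend to every ribosomal protein: Rps15a of the small subunit was at 4.23 and 6.15 FPKM in zygotes and 4.40 and 5.43 FPKM in MII eggs, and these groups overlapped (log2 difference 0.05 ± 0.33, adjusted p = 0.920).

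In oxidative phosphorylation, the steepest falls included subunits of complex I and of ATP synthase. Ndufa9 (chromosome 6, 126771881 to 126799162), a complex I subunit, was at 0.82 and 1 FPKM in Cnot6l-/- zygotes, against 32.3 and 19.3 FPKM in Cnot6l-/- MII eggs (log2 change -3.77 ± 0.27, adjusted p = 3.02e-07). Ndufc1 was at 2.44 and 3.17 FPKM in zygotes against 43.8 and 60.3 FPKM in MII eggs, and Ndufb4 at 7.62 and 14.02 FPKM against 136 and 142 FPKM. Both are complex I subunits, and their changes were -3.79 and -3.62. The ATP synthase genes Atp5j2 and Atp5o changed by -3.79 and -3.62, with Atp5j2 at 6.30 and 13.0 FPKM in zygotes against 124 and 156 FPKM in MII eggs. Among proteasome genes, Psmb7, a catalytic beta subunit, was at 2.52 and 3.03 FPKM in zygotes against 50.5 and 40.5 FPKM in MII eggs (log2 change -3.62 ± 0.41, adjusted p = 5.82e-06), so zygotes held 6.10% of the MII level. Psmb5, another catalytic subunit, changed by -3.49 ± 0.25. Of the translation initiation factors, Eif1ax changed by -3.52 and Eif3g by -3.46, while Eif4e1b, an oocyte-specific relative of the cap-binding protein, was at 9.67 and 16.0 FPKM in zygotes and 11.04 and 14.7 FPKM in MII eggs, with overlapping libraries (log2 difference -0.03 ± 0.27, and 0.62 after scaling, neither called).

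**Figure D2:**
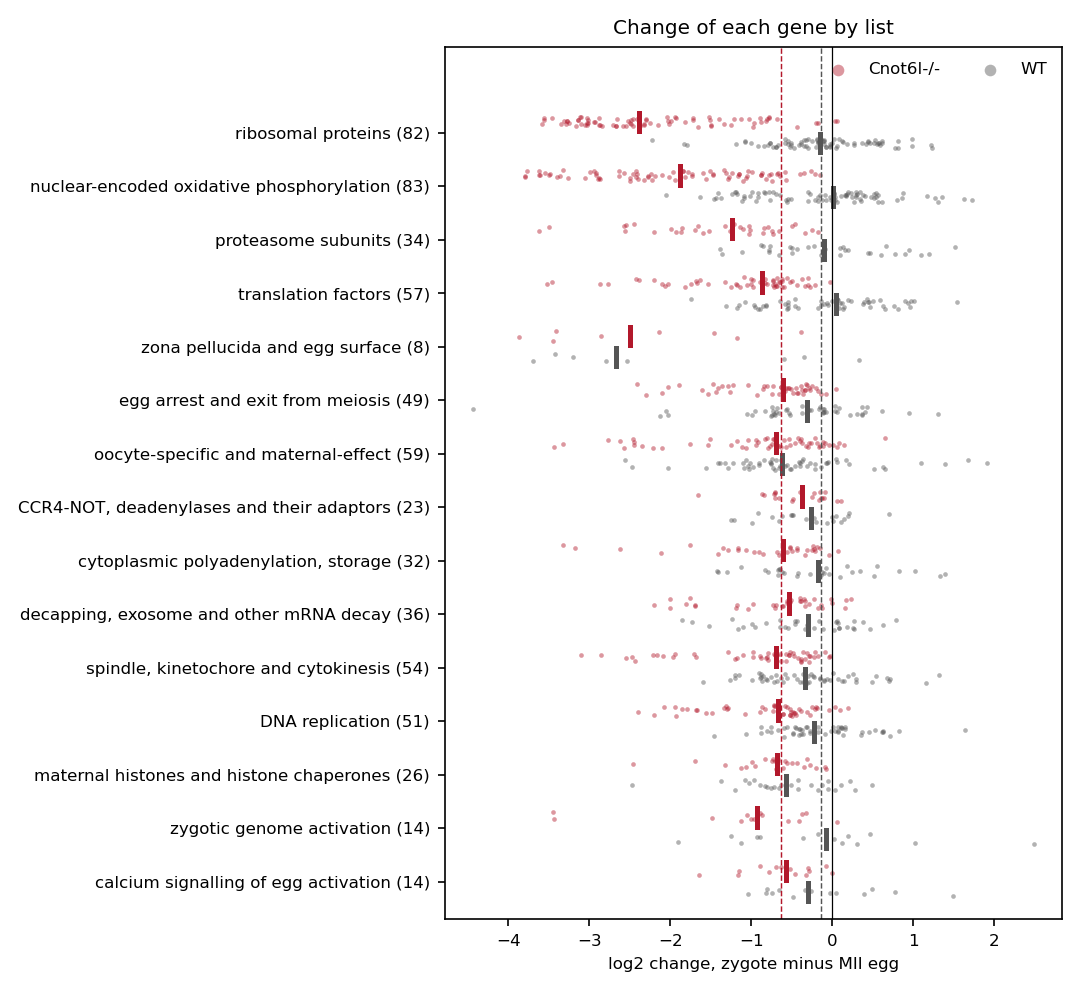
Log2 change from MII egg to zygote for each gene of 15 lists, with Cnot6l-/- above WT in each row; each point is a gene, thick bars are list medians, dashed lines mark the medians of all 7681 genes (-0.63 in Cnot6l-/- and -0.14 in WT), and the number of genes is in brackets. The ribosomal protein list centres on -2.39 in Cnot6l-/- and -0.15 in WT without scaling, whereas the zona pellucida list lies low in both genotypes.

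Over all 7681 genes the lowest change was -7.41. Ranked genes were called, averaged at least 10 FPKM in the higher group and had no overlap between zygote and MII libraries. They also kept their sign after scaling, and predicted loci, RIKEN clones, microRNAs and small nucleolar RNAs were left out. Among the ranked genes the lowest change belonged to Hint1 (chromosome 11, 54679940 to 54683998), which encodes a nucleotide-binding hydrolase. Hint1 was at 8.98 and 19.2 FPKM in Cnot6l-/- zygotes, against 257 and 278 FPKM in Cnot6l-/- MII eggs. Both zygote libraries were more than an order of magnitude below both MII libraries, and the log2 change was -4.24 ± 0.37 (adjusted p = 8.17e-07). Fam162a, a mitochondrial protein gene, was at 1.41 and 1.88 FPKM in zygotes against 39.6 and 32.3 FPKM in MII eggs. Ninj2, a membrane protein gene of the ninjurin family, was at 7.88 and 15.3 FPKM against 166 and 154 FPKM. Their changes were -3.80 and -3.74. Yipf1, a Golgi membrane protein gene, and Bloc1s1, a subunit gene of a complex in lysosome-related organelle biogenesis, changed by -3.71 and -3.68. All 12 of the lowest ranked genes kept the call after median-ratio scaling, while keeping the sign was a condition of the ranking.

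**Figure D3:**
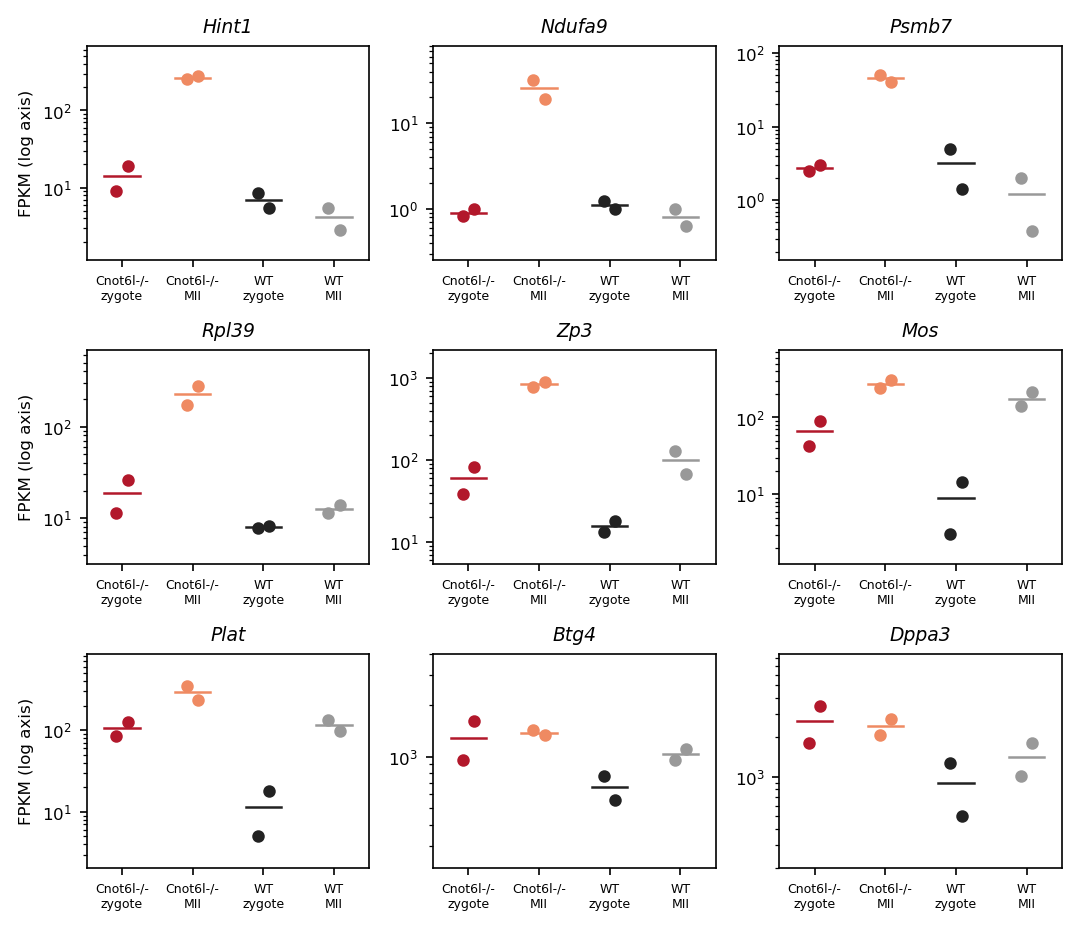
FPKM of 9 genes in each library on a log axis; points are libraries and short lines are the means of 2 libraries, for Cnot6l-/- zygotes, Cnot6l-/- MII eggs, WT zygotes and WT MII eggs. Hint1, Ndufa9, Psmb7 and Rpl39 are high in Cnot6l-/- MII eggs alone, Zp3, Mos and Plat are lower in the zygotes of both genotypes, and in Btg4 and Dppa3 the Cnot6l-/- zygote and MII libraries overlap.

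Genes for the egg coat and egg surface had a median change of -2.49 (-1.85 after scaling), and 6 of the 8 genes were lower and 0 higher (5 lower after scaling). The share called lower was 75%, against 36.4% of all 7681 genes. Zp3 (chromosome 5, 136455975 to 136464494), a glycoprotein of the zona pellucida, was at 38.6 and 81.2 FPKM in Cnot6l-/- zygotes, against 779 and 887 FPKM in Cnot6l-/- MII eggs. The log2 change was -3.87 ± 0.37 (adjusted p = 1.91e-06). Zp2, which is cleaved after fertilization, was at 39.2 and 54.4 FPKM in zygotes against 704 and 374 FPKM in MII eggs, and Zp1, which cross-links the coat, at 18.4 and 26.4 FPKM against 291 and 205 FPKM. Their changes were -3.45 and -3.41. Astl, the protease that cleaves ZP2, was at 12.8 and 22.2 FPKM in zygotes against 85.0 and 70.7 FPKM in MII eggs (-2.13 ± 0.33, adjusted p = 1.21e-04). Folr4, the sperm receptor now called Juno, was at 4.84 and 12.4 FPKM in zygotes against 52.6 and 74.6 FPKM in MII eggs (-2.85 ± 0.36). Cd9, a membrane protein needed for gamete fusion, was at 71.0 and 103 FPKM in zygotes against 217 and 174 FPKM in MII eggs, without overlap but without passing the test (-1.18 ± 0.48, adjusted p = 0.0797). Zp1, Astl, Folr4 and Cd9 were picked for the text after their values were seen.

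The genes that hold and end meiotic arrest moved like the bulk, with 17 of 49 lower, 0 higher and a median of -0.61 (10 lower, with a median of -0.036, after scaling). Called lower were 34.7% of the list, against 36.4% of all 7681 genes. Mos (chromosome 4, 3797805 to 3799252), the kinase that maintains metaphase II arrest, was at 42.4 and 91.2 FPKM in Cnot6l-/- zygotes against 240 and 306 FPKM in Cnot6l-/- MII eggs. Its change was -2.10 ± 0.50 (adjusted p = 0.00434), but the call was lost without zygote library 1 (-1.56, adjusted p = 0.0914) and after scaling (-1.41, adjusted p = 0.157). Mapk3, a kinase downstream of Mos, was at 8.85 and 15.7 FPKM in zygotes against 68.3 and 66.0 FPKM in MII eggs, a change of -2.41. Cdk1, the kinase of the M phase, was low in both groups, at 0.65 and 0.39 FPKM in zygotes against 8.42 and 4.84 FPKM in MII eggs, a change of -2.29. Among the 14 genes for calcium signalling at egg activation, 4 were lower (28.6%) and 0 higher, with a median of -0.57 (2 lower, with a median of 0.055, after scaling).

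Of 59 oocyte-specific and maternal-effect genes, 17 were lower and 0 higher, with a median of -0.70 (11 lower and 2 higher, with a median of -0.054, after scaling). Called lower were 28.8% of them, against 36.4% of all 7681 genes. Figla, a transcription factor of the oocyte that drives the zona genes, was at 0.32 and 1.47 FPKM in Cnot6l-/- zygotes against 17.6 and 19.3 FPKM in Cnot6l-/- MII eggs (-3.43 ± 0.29, adjusted p = 8.17e-07). Zar1l, a paralogue of Zar1, which is required for the first cleavage, was at 2.86 and 6.23 FPKM in zygotes against 53.4 and 50.1 FPKM in MII eggs, a change of -3.32. The genes at the upper end of the list did not pass the test. Dppa3, which protects the maternal genome from demethylation, was at 1804 and 3491 FPKM in zygotes and 2093 and 2753 FPKM in MII eggs. The zygote libraries lay on either side of the MII libraries, with a log2 difference of 0.06 ± 0.43 (adjusted p = 0.928). Obox3, an oocyte homeobox gene, was at 3.91 and 0.62 FPKM in zygotes and 1.17 and 0.49 FPKM in MII eggs, and its 0.65 difference did not pass the test, but without zygote library 2 it was 1.45 and called higher (adjusted p = 0.00153).

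In the list of CCR4-NOT subunits, deadenylases and adaptors, 3 of 23 genes were lower and 0 higher, and the median was -0.37 (1 lower, with a median of 0.20, after scaling). Called lower were 13.0% of this list, against 36.4% of all 7681 genes. Btg4 (chromosome 9, 50924106 to 50927805) was at 954 and 1609 FPKM in Cnot6l-/- zygotes and 1431 and 1336 FPKM in Cnot6l-/- MII eggs, with the zygote libraries on either side (-0.16 ± 0.32, adjusted p = 0.736, and 0.54 after scaling, not called). Pnldc1, a PARN-like nuclease gene, was at 0.13 and 0.43 FPKM in zygotes against 3.53 and 2.55 FPKM in MII eggs, a change of -1.66. For cytoplasmic polyadenylation, poly(A) binding and mRNA storage, 9 of 32 genes were lower (28.1%) and 0 higher, with a median of -0.61 (6 lower, with a median of -0.022, after scaling). For decapping, the exosome and other decay factors, 12 of 36 were lower (33.3%) and 0 higher, with a median of -0.53 (8 lower and 2 higher, with a median of 0.092, after scaling). Among the decay factors, Patl2, an oocyte protein that represses mRNA, was at 1.62 and 2.41 FPKM in zygotes against 16.4 and 9.87 FPKM in MII eggs, a change of -2.20.

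The spindle, replication, histone and stress lists had medians close to that of all genes, and the zygotic genome activation list had a lower one. Called lower were 38.9%, 35.3%, 23.1%, 45.5% and 50% of their genes, in that order, against 36.4% of all 7681. Of 54 spindle, kinetochore and cytokinesis genes, 21 were lower and 0 higher (median -0.70), with Cenpm, a centromere protein gene, at 1.38 and 2.73 FPKM in zygotes against 23.1 and 26.3 FPKM in MII eggs, and Tubb4b, a beta-tubulin gene with close relatives, at 7.51 and 14.6 FPKM against 91.1 and 74.6 FPKM. Of 51 DNA replication genes, 18 were lower and 0 higher (median -0.66), and Rpa2, which coats single-stranded DNA, was at 0.55 and 1.14 FPKM against 9.14 and 8.10 FPKM. Of 26 genes for maternal histones and histone chaperones, 6 were lower and 0 higher (median -0.68). Npm2, the chaperone that helps decondense sperm chromatin, was at 45.1 and 73.8 FPKM in zygotes against 312 and 330 FPKM in MII eggs, a change of -2.45. Of 47 genes listed for zygotic genome activation, 14 reached 1 FPKM, and of these 7 were lower and 0 higher (median -0.93, or -0.42 without MII library 1). Arg2, an arginase gene of that list, was at 2.36 and 3.04 FPKM in zygotes against 55.0 and 27.7 FPKM in MII eggs. Of 11 stress and immediate early genes, 5 were lower and 0 higher (median -0.58), and Ddit3, a stress-response transcription factor, changed by -2.16 and Hsph1, a chaperone gene, by -1.75. After scaling, the counts and medians of these lists were 12 lower and 1 higher (-0.084) for the spindle, 13 lower (-0.071) for replication, 2 lower (-0.014) for histones, 3 lower (-0.44) for zygotic genome activation and 3 lower (-0.016) for stress genes.

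Few genes went the other way. The 7 called higher, looked at after their values were seen, were Nupr1, Hist1h4d, 4 small noncoding RNA genes and 1 predicted gene. Nupr1, which encodes a stress-linked chromatin protein, was at 8.94 and 4.11 FPKM in Cnot6l-/- zygotes against 0 and 1.21 FPKM in Cnot6l-/- MII eggs (2.26 ± 0.52, adjusted p = 0.00317), and its call was lost without zygote library 1 (1.78, adjusted p = 0.0723) and without MII library 1 (1.69, adjusted p = 0.068). Hist1h4d, a histone gene with near-identical copies, was at 1.05 and 8.21 FPKM against 0 and 0.63 FPKM, and its call was lost without zygote library 2 (0.68, adjusted p = 0.397) and without MII library 1 (1.41, adjusted p = 0.232). Without MII library 1, 0 genes were called higher, and without zygote library 2, 14 were. At an unadjusted p under 0.05, 14 genes were higher and 3627 lower. Near the 1 FPKM limit, 59 of the 220 genes whose higher group mean was 1 to 1.1 FPKM were lower (median -0.43), as were 70 of the 235 tested genes at 0.9 to 1 FPKM (median -0.42).

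In WT the same step brought a smaller median change and fewer calls over these 7681 genes. They were chosen on Cnot6l-/- levels, and 5630 of the 23235 listed genes averaged 1 FPKM or more in WT zygotes or MII eggs. Genes near 0 FPKM in WT MII eggs, such as Bloc1s1 at 0.26 and 0.67 FPKM, had little room to fall. How far this shaped the WT counts and the differences from WT was not tested. WT zygotes had 335 of the 7681 genes lower than WT MII eggs (4.36%) and 109 higher (1.42%), and the median change was -0.14. After scaling, 412 were lower (5.36%) and 1222 higher (15.9%), and the median change was 0.15. These counts rest on single libraries: 130 were lower and 21 higher without WT zygote library 1, 156 and 39 without WT MII library 1, and 80 and 13 without WT MII library 2, while 208 were higher without WT zygote library 2. The change was more negative in Cnot6l-/- than in WT for 1665 genes (21.7%) and more positive for 29 (0.378%), by the test of the difference between the changes. After scaling these were 1879 (24.5%) and 212 (2.76%), and the 29 became 65 without Cnot6l-/- zygote library 1 and 16 without WT MII library 2. Of the genes called lower in zygotes, 159 were lower in both genotypes, which was 5.69% of the 2796 in Cnot6l-/- and 47.5% of the 335 in WT.

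The change was more negative in Cnot6l-/- than in WT for 56 of the 82 ribosomal protein genes, 48 of the 83 oxidative phosphorylation genes, 22 of the 57 translation factor genes and 14 of the 34 proteasome genes, against 21.7% of all 7681 genes. Hint1 was at 8.63 and 5.39 FPKM in WT zygotes and 5.48 and 2.87 FPKM in WT MII eggs, overlapping values that were both far below Cnot6l-/- MII eggs. Its change differed from the WT change by -4.88 (adjusted p = 1.46e-05). In several genes the genotypes moved in opposite directions. Arg2 was at 16.2 and 4.20 FPKM in WT zygotes against 1.22 and 0.28 FPKM in WT MII eggs, a change of -3.44 in Cnot6l-/- against 2.49 in WT. Aven, an apoptosis inhibitor gene, changed by -3.02 in Cnot6l-/- and 2.07 in WT, and Zar1l by -3.32 in Cnot6l-/- and 1.39 in WT. The 2 WT zygote libraries differed widely in these genes, as in Fam162a at 8.41 and 1.12 FPKM.

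The egg coat genes were low in zygotes of both genotypes. In WT, Zp3 was at 13.3 and 17.8 FPKM in zygotes against 129 and 68.2 FPKM in MII eggs, a change of -2.53, and its difference from the Cnot6l-/- change did not pass the test (-1.34, adjusted p = 0.0957). A smaller set fell less in Cnot6l-/-. Mos was at 3.09 and 14.6 FPKM in WT zygotes against 140 and 211 FPKM in WT MII eggs, a change of -4.44, which differed from the Cnot6l-/- change by 2.33 (adjusted p = 0.0303). Plat, the tissue plasminogen activator whose mRNA is activated by polyadenylation in oocytes, was at 83.8 and 127 FPKM in Cnot6l-/- zygotes against 348 and 234 FPKM in Cnot6l-/- MII eggs, and at 5.08 and 17.9 FPKM in WT zygotes against 132 and 98.1 FPKM in WT MII eggs. Its change was -1.46 in Cnot6l-/- and -3.42 in WT, a difference of 1.97 (adjusted p = 0.0242). Tmem66, a gene for a regulator of calcium entry, changed by -1.12 in Cnot6l-/- and -3.34 in WT, a difference of 2.22 (adjusted p = 0.00231). Without 1 library at a time, the difference lost its call for Mos in 4 of 8 cases, among them without WT zygote library 1 (1.37, adjusted p = 0.184), and for Plat in 4 of 8, among them the same library (1.15, adjusted p = 0.136), and it kept its call for Tmem66 in all 8. With no filter on low values the difference also lost its call for Mos (adjusted p = 0.0734) and Plat (adjusted p = 0.0518). The fall within Cnot6l-/- was less firm: it lost its call without zygote library 1 for Plat (-1.16, adjusted p = 0.137) and Tmem66 (-0.98, adjusted p = 0.114), without MII library 1 for Plat (-1.17, adjusted p = 0.133) and Tmem66 (-0.91, adjusted p = 0.144), after scaling for Plat (-0.76) and Tmem66 (-0.45), and in a fit of the 4 libraries alone for Plat (adjusted p = 0.0882) and Tmem66 (adjusted p = 0.108).

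In Btg4-/- oocytes, 108 genes were lower in zygotes than in MII eggs (1.41%) and 18 higher (0.234%), with a median change of -0.23. After scaling these were 116 (1.51%) and 166 (2.16%), with a median change of 0.02. The change was more negative in Cnot6l-/- than in Btg4-/- for 1193 genes (15.5%) and more positive for 4 (0.0521%). Without Cnot6l-/- zygote library 1 these became 717 and 10, and without zygote library 2 the second became 12. Psmb7 was at 115 and 70.6 FPKM in Btg4-/- zygotes and 98.2 and 69.5 FPKM in Btg4-/- MII eggs, with a change of 0.12 that differed from that in Cnot6l-/- by -3.74 (adjusted p = 3.54e-04).

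Set against WT at each stage, the mutant stood further above WT as MII eggs than as zygotes. In Cnot6l-/- zygotes 852 of the 7681 genes were higher than in WT zygotes (11.1%) and 26 lower (0.338%), and in Cnot6l-/- MII eggs 4112 were higher than in WT MII eggs (53.5%) and 29 lower (0.378%). After scaling, zygotes had 734 higher (9.56%) and 546 lower (7.11%), and MII eggs 2929 higher (38.1%) and 672 lower (8.75%). Both comparisons share their Cnot6l-/- libraries with the fall described above. The median difference from WT over all 7681 genes was 0.33 in zygotes and 0.86 in MII eggs, and after scaling it was -0.05 in zygotes and 0.38 in MII eggs. Over ribosomal protein genes it was 0.67 in zygotes and 2.95 in MII eggs (0.21 and 2.33 after scaling), and over oxidative phosphorylation genes 0.68 and 2.63 (0.25 and 1.91 after scaling). Summed over the ribosomal protein list, Cnot6l-/- libraries held 27083 and 32673 FPKM as GV oocytes, 13356 and 12291 FPKM as MI oocytes, 5517 and 8468 FPKM as MII eggs and 1614 and 2935 FPKM as zygotes. WT libraries held 32008 and 32084 FPKM as GV oocytes, 3786 and 2752 FPKM as MI oocytes, 1276 and 1655 FPKM as MII eggs and 1119 and 788 FPKM as zygotes. In both genotypes the sum was lower at each later stage, and the largest drop in summed FPKM lay between GV and MI. In Cnot6l-/- the list's median log2 change was -1.15 from GV to MI, -1.27 from MI to MII and -2.39 from MII to zygote. After scaling these were -0.90, -0.49 and -1.81, and on the log2 scale the last step was the largest fall. Both Cnot6l-/- libraries lay above both WT libraries as MI oocytes, MII eggs and zygotes, and the genotypes overlapped as GV oocytes. The zona list kept 4642 and 4552 FPKM in Cnot6l-/- MI oocytes and 2496 and 2027 at MII, and had 280 and 434 FPKM in Cnot6l-/- zygotes. Over the 7681 genes, Cnot6l-/- oocytes had 1210 lower (15.8%) and 468 higher (6.09%) at MI than at GV, and 3987 lower (51.9%) and 24 higher (0.312%) at MII than at MI. After scaling, 871 were lower (11.3%) and 782 higher (10.2%) at MI than at GV, and 1825 lower (23.8%) and 612 higher (7.97%) at MII than at MI.

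**Figure D4:**
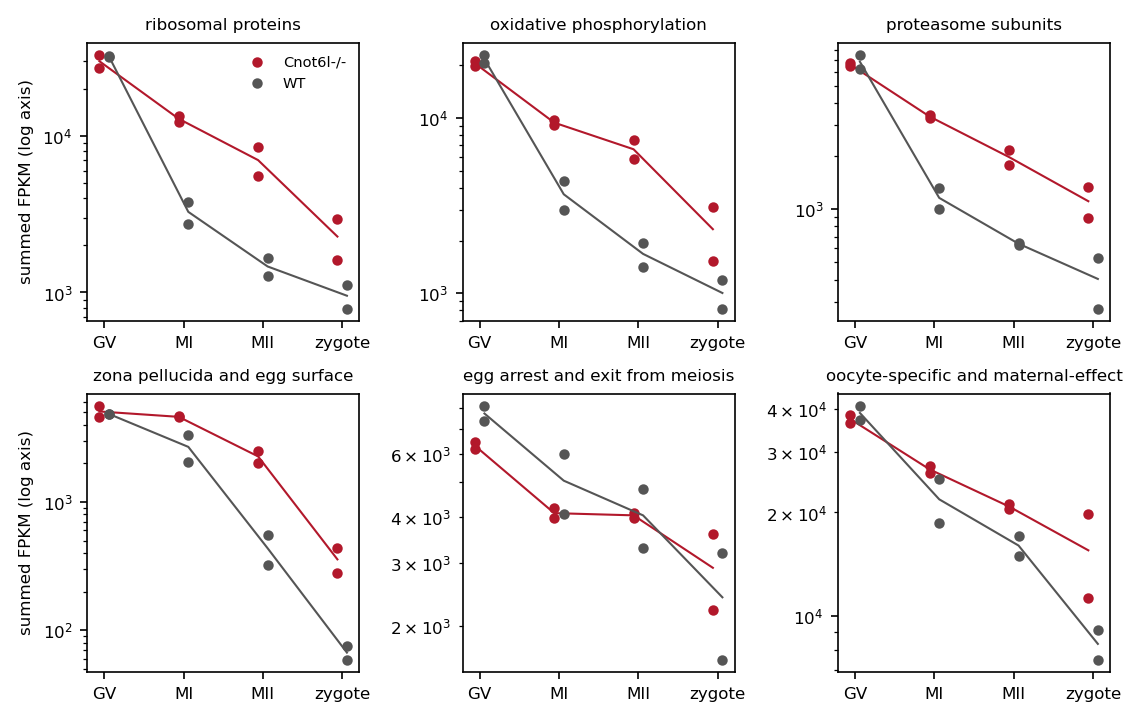
Summed FPKM of 6 gene lists at GV, MI, MII and zygote on log axes; points are libraries and lines join the means of 2 libraries, in red for Cnot6l-/- and grey for WT. In the ribosomal protein panel both genotypes decline at every step, and Cnot6l-/- lies above WT from MI on, at 13356 and 12291 FPKM in Cnot6l-/- MI oocytes against 3786 and 2752 FPKM in WT MI oocytes.

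The size of the fall in Cnot6l-/- zygotes followed how far each gene had fallen in WT before MII. The WT libraries did not enter the Cnot6l-/- log2 changes. They did enter the spread behind the Cnot6l-/- calls, which was estimated over all 24 libraries. In WT, 6420 of the 7681 genes were lower at MII than at GV (83.6%) and 0 were higher, by limma also at an unadjusted p under 0.05. Summed FPKM fell at this step too, and after scaling 3249 were lower (42.3%) and 1309 higher (17%), so the sets below rest on unscaled WT values. Among the 950 genes lower by 4 or more log2 units in WT, 795 were lower in Cnot6l-/- zygotes than in Cnot6l-/- MII eggs (83.7%). Over all 7681 genes this share was 36.4%. The median change of the 950 was -1.88, with 18.6% of the MII level left in the median gene. Among the 2448 genes lower by 2 to 4 in WT, 1306 were lower in Cnot6l-/- zygotes (53.3%), with a median of -0.90. Among the 2191 lower by 1 to 2, 499 were lower (22.8%), with a median of -0.53. Among the 493 that were not called in WT and changed by less than 0.5, 34 were lower (6.9%) and 3 higher, with a median of -0.23. The order of the Cnot6l-/- medians was the same after scaling the Cnot6l-/- values, at -1.43, -0.46, -0.02 and 0.28. The sets were not split by level, and log2(FPKM + 1) understates the changes of low genes. A gene nearly gone in WT MII eggs was among the 7681 only if it reached 1 FPKM in Cnot6l-/- MII eggs or zygotes. Bloc1s1, for example, was at 0.26 and 0.67 FPKM in WT MII eggs and at 19.8 and 21.6 FPKM in Cnot6l-/- MII eggs. Genes below 1 FPKM in both Cnot6l-/- groups were left out. The part of level and of this choice of genes in the order was not tested. In Btg4-/- the medians of the same sets were 0.05, -0.13, -0.29 and -0.24, and after scaling 0.35, 0.13, -0.047 and -0.028. The 109 genes that were higher in WT zygotes than in WT MII eggs included 84 that were lower in Cnot6l-/- zygotes (77.1%). The median of the 109 was -1.70 in Cnot6l-/- and 0.32 in Btg4-/-.

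**Figure D5:**
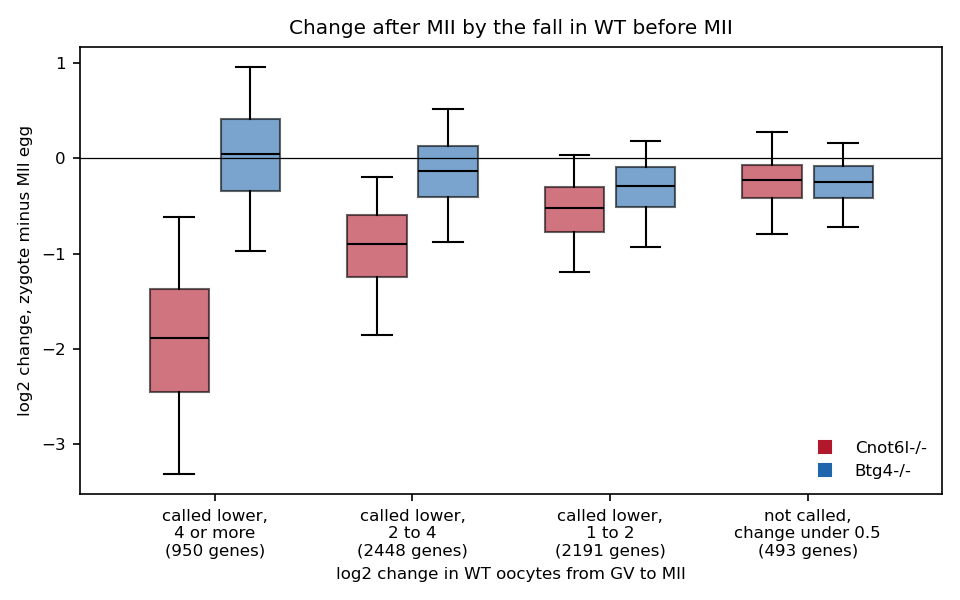
Log2 change from MII egg to zygote in Cnot6l-/- (red) and Btg4-/- (blue) for genes grouped by their change from GV to MII in WT; boxes show quartiles and medians, whiskers the 5th and 95th percentiles of genes. The Cnot6l-/- medians run from -1.88 in the group of largest WT fall to -0.23 in the level group, and the Btg4-/- medians lie between 0.05 and -0.29, all without scaling.

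The genes that fell furthest had shorter transcripts, in the coding part and in the 3' UTR, with a smaller gap among genes of at least 20 FPKM. A protein-coding transcript model of the mm9 annotation was matched for 7346 of the 7681 genes, of which the 7312 that averaged 1 FPKM or more in MII eggs are described. The end of a model need not be the mRNA end used in these cells, which was not examined. Median transcript length was 1275.5 bases in the genes called lower by 2 or more and 3695 bases in those not called with a change under 0.25, and median coding length was 699 and 1803 bases. The 488 matched genes called lower by 2 or more had a median 3' UTR of 235.5 bases, the 1374 lower by 1 to 2 had 437.5 bases, and the 1245 not called with a change under 0.25 had 1094 bases, against 763 bases for all 7312. The hexamer TTTTAT, the DNA form of the cytoplasmic polyadenylation element that CPEB proteins bind, was searched on the sense strand alone. Among 3' UTRs of at least 100 bases, it stood within the last 100 bases in 5.18% of the genes lower by 2 or more, 9.80% of those lower by 1 to 2 and 23.8% of those not called, against 16.9% of all 7312 genes and 13.7% of all annotated genes. The other two motifs were searched in the same way. TGTANATA, which Pumilio proteins bind, stood there in 3.27% of the genes lower by 2 or more and 6.62% of those not called, against 4.58% of all annotated genes, and TATTTAT, the core of an AU-rich element, in 3.27% and 5.84%, against 4.26%. The motifs may share bases where they overlap. The sets differed in MII level. At 1 to 5 FPKM were 11 of the 488 genes lower by 2 or more and 764 of the 1245 not called. Among genes of at least 20 FPKM in MII eggs, the TTTTAT shares were 7.22% for genes lower by 2 or more and 36.2% for those not called. There the median 3' UTR lengths were 193 and 411 bases, transcript lengths 1126 and 1394 bases, and coding lengths 570 and 660 bases. At that level the shares of TGTANATA ran the other way, at 4.44% and 2.84%, and those of TATTTAT were 3.89% and 7.09%. With the sets chosen on scaled values the shares over all levels were 4.65% and 18.5%. Base composition differed too, with a median G+C of 46.2% in the 3' UTRs of genes lower by 2 or more and 40.6% in those not called, and its part in the motif shares was not tested.

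Stretches of 30 bases from the 3' UTR are given to show what these sequences look like. The first set shows the last 30 bases of the transcript models of 4 genes, none of which held TTTTAT in its last 100 bases. They had the lowest change among genes ranked as for Hint1 with a 3' UTR of at least 100 bases (that of Zp3 is shorter). The second shows 5 genes that were not called, changed by less than 0.25 and held the hexamer in the last 100 bases. These were the 5 of highest MII level, and the hexamer is in them by choice. Their windows were placed around the hexamer and ended 49 (Btg4), 0 (Zbed3), 36 (Omt2b), 33 (Cks2) and 51 (Rps27l) bases before the end. Capitals mark TTTTAT and the polyadenylation signal AATAAA.
Hint1, chromosome 11, + strand: ctAATAAAagacattgttgcacgtctatga
Fam162a, chromosome 16, - strand: agaggaacaaatacattttcttaaagaatg
Atp5j2, chromosome 5, - strand: AATAAAaggtgactggttcacatactgctt
Ndufc1, chromosome 3, - strand: agatgccagcggccaatggctaggcaaagg
Btg4, chromosome 9, + strand: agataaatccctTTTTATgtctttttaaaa
Zbed3, chromosome 13, + strand: tttttttttAATAAAcTTTTATttatctgc
Omt2b, chromosome 9, + strand: gggttttaacggTTTTATAATAAATAAAag
Cks2, chromosome 13, + strand: tataaatgcctgTTTTATtttacctgtttt
Rps27l, chromosome 9, + strand: attattgtttgaTTTTATaaagtctacaac

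The genes of the second set were abundant in both groups. Cks2, which encodes a partner of cyclin-dependent kinases needed in meiosis, was at 377 and 636 FPKM in Cnot6l-/- zygotes and 540 and 499 FPKM in Cnot6l-/- MII eggs. Zbed3 was at 406 and 974 FPKM in zygotes and 582 and 843 FPKM in MII eggs, and Omt2b at 437 and 630 FPKM and 551 and 496 FPKM. Rps27l, a ribosomal protein S27-like gene, was at 400 and 530 FPKM in zygotes and 467 and 432 FPKM in MII eggs. In all of these the zygote libraries lay on either side of the MII libraries. A hexamer in this window describes the sequence and says nothing of binding.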

How the data were processed

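FPKM per gene was measured in 24 single-group libraries (Smart-Seq2, Tn5 fragmentation, per the labels' protocols). Per the submitters' processing notes, the authors used CASAVA 1.8, TopHat2 2.0.11, Bowtie2 2.1.0, Cufflinks 2.2.1 and mm9, and deposited FPKM rounded to hundredths. No source used here says how FPKM was scaled from one library to another, and the depth is unknown, so no counting interval is given. The labels differ on how many cells entered a library. The deposited single-library FPKM tables were not used.

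Values were analysed as log2(FPKM + 1), which understates changes of low genes, with limma 3.58.1 in R 4.3.3, using 12 group means, a trended prior and 12 residual degrees of freedom, over 10884 genes that averaged 1 FPKM or more in some group. Benjamini-Hochberg adjusted p under 0.05 was a call. Tests were two-sided and the procedure was tested on simulated data. Alternatives were a pseudocount of 0.1, other filters, median-ratio scaling over 3677 genes, a fit of 4 libraries, a replicate block and omission of single libraries. No list was tested as a set, so counts and medians describe it. Genes named were, in part, the 12 lowest and highest calls of at least 10 FPKM under the ranking conditions given with Hint1. No gene called higher met the conditions. Also named, in part, were the 2 extremes of each list, Cnot6l, Btg4 and, under the same conditions, the 6 extremes of the difference from WT. Members, lists and tests were chosen with earlier results of these data known. Coordinates are from the deposited table, written 1-based, on mm9. 3' UTRs are from GENCODE on the same build, 1 coding transcript per gene.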

Additional observations from a re-analysis of the deposited data

Results flagged for a closer look

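These results were singled out because the zygote minus MII change in Cnot6l-/- differed from that in another genotype by the limma test of the difference itself. Against WT, 1665 genes had a more negative change in Cnot6l-/- and 29 a more positive one. Against Btg4-/-, 1193 had a more negative change and 4 a more positive one. Values below are the Cnot6l-/- change minus the WT change on the log2 scale, from 2 libraries per group. Some of these genes were near 0 FPKM in WT MII eggs, such as Cdk1 at 0.1 and 0.04 FPKM, with little room to fall there. In oxidative phosphorylation, the change was more negative in Cnot6l-/- for Atp5j2 (-5.09), Ndufc1 (-4.08), Ndufa9 (-4.003), Ndufb4 (-3.92) and Atp5o (-3.06). The proteasome genes with a more negative change were Psmb7 (-4.52) and Psmb5 (-2.999). For the ribosome and translation these were Eif1ax (-5.07), Eif3g (-3.53), Rpl7a (-3.21) and Rpl39 (-2.999). From the egg surface, arrest and oocyte lists they were Zar1l (-4.70), Cdk1 (-3.59), Figla (-3.36), Folr4 (-2.50) and Mapk3 (-2.03). Of the mRNA decay lists, more negative changes were seen for Pnldc1 (-1.80) and Patl2 (-1.66). Spindle and replication genes with a more negative change were Tubb4b (-4.18), Rpa2 (-3.03) and Cenpm (-2.66). Of the remaining named genes, more negative changes belonged to Arg2 (-5.93), Fam162a (-5.37), Aven (-5.09), Hint1 (-4.88), Ninj2 (-4.86), Bloc1s1 (-3.77), Ddit3 (-3.14), Yipf1 (-3.05) and Ldhc (-3.02). It was more positive in Cnot6l-/- for Mos (2.33), Nupr1 (2.25), Tmem66 (2.22), Plat (1.97) and Astl (1.55). The Nupr1 difference lost its call without any 1 of 6 of the 8 libraries, with adjusted p between 0.0828 and 0.222. The Astl difference also lost its call without any 1 of 6 libraries, with adjusted p between 0.0515 and 0.139, and the Patl2 difference without Cnot6l-/- MII library 1 (adjusted p = 0.0551).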

How the results depend on the processing

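After median-ratio scaling, Cnot6l-/- zygotes had 1583 genes lower and 138 higher, the difference from WT had 212 genes above, the difference from Btg4-/- had 23 above, and WT zygotes had 1222 higher. The scaled medians were 0.055 for calcium signalling, 0.20 for CCR4-NOT and 0.092 for other decay factors, which turned positive. They stayed negative at -1.85 for the egg surface, -1.81 for ribosomal proteins, -0.58 for the proteasome, -0.33 for translation factors, -0.44 for zygotic genome activation, -0.054 for oocyte genes, -0.022 for polyadenylation and storage, -0.084 for the spindle, -0.071 for replication, -0.014 for histones and -0.016 for stress genes. For the sets chosen in WT they were -1.43 for the fall of 4 or more before MII, -0.22 for genes lower in WT zygotes and -1.15 for genes higher there. With no filter 1 gene was higher, with a minimum of 5 FPKM 1555 were lower because fewer genes were tested, and with the 4 libraries alone 1730 were lower. With a pseudocount of 0.1 the difference from WT had 58 genes above. The cause of the other shifts was not tested.

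Leaving out single libraries gave 1501 to 2885 genes lower and 0 to 14 higher in Cnot6l-/-, 16 to 65 above the WT change, 4 to 12 above and 717 to 1317 below the Btg4-/- change, and 80 to 271 lower and 13 to 208 higher in WT. The medians then ran between -2.98 and -2.01 for the egg surface, -1.17 and -0.42 for zygotic genome activation, -0.71 and -0.21 for CCR4-NOT, -0.82 and -0.30 for other decay factors, -0.95 and -0.42 for replication, -0.95 and -0.49 for histones, and -1.10 and -0.56 for stress genes. The ratio of summed FPKM ran between 0.460 and 0.685. Genes that were not called changed sign, between -0.34 and 0.56 for Cnot6l, -0.53 and 0.22 for Btg4, -0.17 and 0.28 for Rps15a, -0.37 and 0.30 for Eif4e1b, -0.15 and 1.45 for Obox3, -0.41 and 0.54 for Dppa3, -0.79 and 0.47 for Zbed3, -0.26 and 0.27 for Omt2b, -0.46 and 0.29 for Cks2, and -0.17 and 0.24 for Rps27l. After scaling Btg4 was at 0.54, Eif4e1b at 0.62, Zbed3 at 0.54 and Cks2 at 0.61.

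The labels do not tie the replicate numbers to animals or days, and 2 numbers are too few to decide from the data whether they pair the samples, so the block was kept as an alternative. Deviations of same-numbered MII and zygote libraries correlated at 0.30 to 0.71 over 15 pairs of groups (0.44 for Cnot6l-/-). Those of WT and Cnot6l-/- GV oocytes correlated with the MII and zygote libraries at 0.28 to 0.62. Only Btg4-/- GV oocytes had negative values, down to -0.31 with WT zygotes. With a replicate block, 3422 genes were lower and 11 higher, and 49 were above the WT change, and the Plat difference from WT had an adjusted p of 0.0572. The FPKM tables give no depth, so the precision of low values is unknown.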
